A study of Rattus norvegicus with 18 samples.

Results

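Lungs of rats that had inhaled cigarette smoke at 600 µg of total particulate matter per litre of air were set against lungs of rats that had inhaled 300 µg per litre. The arrays were chosen by their titles, 12 of the 18 arrays of the series, and each 600 µg/l array was matched to the 300 µg/l array of the same recovery time. Male Sprague-Dawley rats, an outbred strain, had breathed, through the nose only, mainstream smoke of the reference cigarette 2R4F in daily sessions of 2 h, 5 days each week, for 13 weeks. Lung tissue was taken 2, 6 or 20 h after the last session. Total RNA was hybridised to Affymetrix arrays of 2 types, A and B, which carry mostly different probe sets, with 1 array of each type per concentration and recovery time. The groups were therefore 600 µg/l (3 arrays of type A and 3 of type B), 300 µg/l (3 and 3) and sham-exposed rats on the same schedule (3 and 3). The sham arrays entered the test of the 2 concentrations only in an alternative fit, named where it is used. Their signals are given as the background level. The number of animals behind an array is not stated in the labels, and no condition had a replicate array. Recovery times served as replicates, so a p-value reflects nothing but the scatter among the arrays at hand, which may be technical.

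Mainstream smoke carries polycyclic hydrocarbons, which bind the aryl hydrocarbon receptor (AhR) and switch on enzymes such as Cyp1a1, and oxidants, which release the factor NRF2 onto the genes of glutathione and thioredoxin metabolism. Particles that reach the alveoli are taken up by macrophages, which fill with lipid and lysosomes during long exposure, and the epithelium secretes complement, lipocalin and other defence proteins. Neutrophils and lymphocytes are recruited by chemokines from both.

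The labelled tissue was checked against lung markers. Sftpc, the surfactant protein of alveolar type 2 cells, lay between 16615.5 and 18565.7 on the 600 µg/l arrays and between 16421.3 and 17983.1 on the 300 µg/l arrays. Scgb1a1, the club cell secretory protein, averaged 14585 ± 539 at 600 µg/l and 14700 ± 1179 at 300 µg/l (SD, n = 3 each), and Ager, a type 1 cell marker, 8424 ± 338 and 8361 ± 668. All values are MAS5 signals, a linear intensity, scaled on every array to a trimmed mean of 500.1. The titles and sources of the 4 smoke arrays at 20 h name the smoke, but their exposure field reads sham, so lead results are also given without 20 h. The type B arrays of sham and of 300 µg/l at 2 h shared their deviations from the level over all type B arrays (Pearson's r = 0.574 across probe sets). The type B genes nearest to the threshold are therefore also given without 2 h. The 3'/5' ratios of GAPDH were 1.11 to 1.2 at 600 µg/l and 1.095 to 1.178 at 300 µg/l on type A, while hexokinase on type B at 20 h stood at 2.56 at 600 µg/l and 4.72 at 300 µg/l. The part of these ratios in the results was not tested.

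Few single genes passed the test between the concentrations. A transcript of the lymphocyte antigen 6 family, Ly6al, was about 3-fold higher at 600 than at 300 µg/l, and it is the call that rests on signals above the filter on dim probe sets at both concentrations. The other call, a dim probe set of the small GTPase Rab15, was tested through its 600 µg/l arrays alone, and a brighter probe set of the gene did not pass. The medians of the mucosal defence and macrophage lists lay above 0 (0.40 and 0.22 on the log2 scale) and those of the T cell and mast cell lists below 0 (−0.21 and −0.19), but no further member passed on its own. All lists were chosen with earlier results of these data known, so their counts beside those of all genes are descriptive. The classical smoke-induced gene Cyp1a1 differed by −0.10 on the log2 scale. In whole lung tissue, a different number of cells of a type and a different amount of RNA per cell cannot be told apart.

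Of 18954 probe sets tested with limma, 2 rose at 600 µg/l (0.0106%) and 0 fell (0%) at an adjusted p under 0.05. Of these 2, the Rab15 probe set reached the filter on its 600 µg/l arrays alone, so it could enter the test only by being higher there. At an unadjusted p under 0.05, 998 probe sets passed, 537 higher and 461 lower. Over 9939 genes, each taken at its brightest probe set, 285 were higher (2.87%) and 229 lower (2.3%) at an unadjusted p under 0.05. The 600 µg/l level was higher at all 3 times for 1267 genes (12.7%) and lower at all 3 for 1263 genes (12.7%). The 3 arrays of each concentration did not overlap for 474 genes higher (4.77%) and 411 lower (4.14%) at 600 µg/l. The difference exceeded 1.5-fold on the mean in 51 genes higher and 20 lower. Without the 20 h arrays 25 probe sets passed, 13 higher and 12 lower, and without the 6 h arrays 18 passed, 12 higher and 6 lower. Both probe sets of the full comparison were among them each time. Without the 20 h arrays the variance prior of the type B fit had 62.77 degrees of freedom, against 7.28 with all arrays. The counts are therefore not like for like, and the part of the prior in the 25 was not tested.

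**Figure D1:**
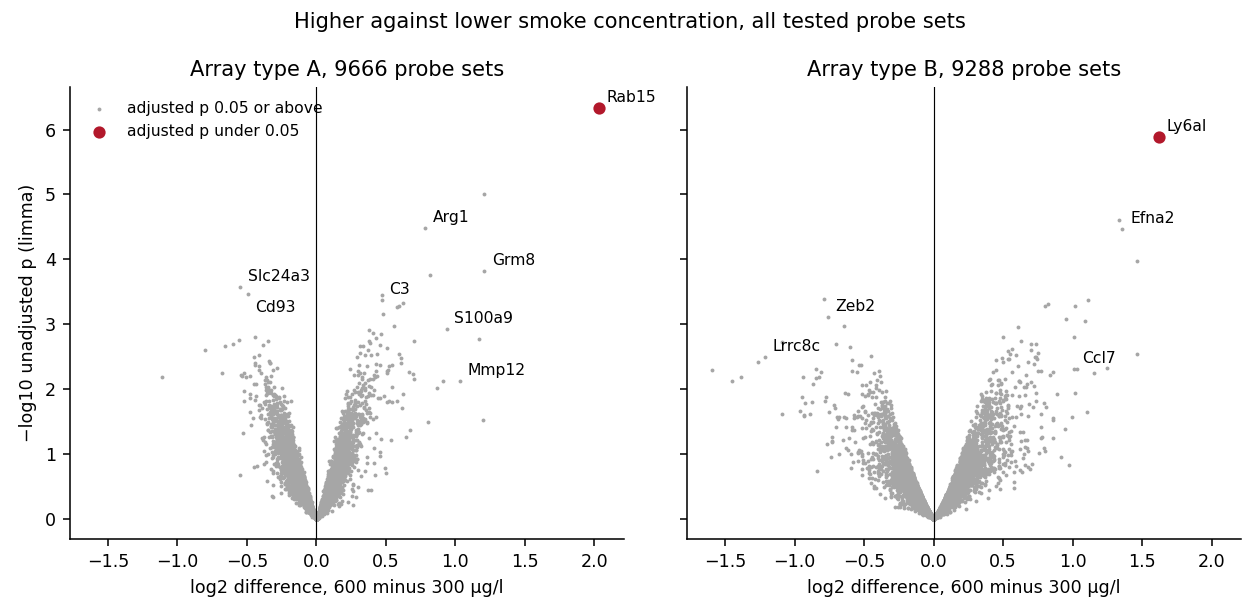
Each point is a probe set, with the log2 difference of 600 minus 300 µg/l on the x axis and −log10 of the unadjusted limma p on the y axis, for type A (9666 probe sets, left) and type B (9288, right). The Rab15 probe set on type A and Ly6al on type B are the red points, at 2.03 and 1.62, and all other points, Arg1 and Efna2 among them, did not pass adjustment.

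Ly6al belongs by its symbol to the family of small lipid-anchored surface proteins first described on lymphocytes. Its signal at 2, 6 and 20 h was 3382.3, 3912.7 and 4378.6 at 600 µg/l, against 1208.0, 1502.2 and 1017.3 at 300 µg/l and 1174.1, 1109.5 and 1115.8 in sham lungs. Every 600 µg/l array stood above every other array, and the 300 µg/l arrays were close to sham. The log2 difference was 1.62 ± 0.15 (SE, limma, adjusted p = 0.0123), a 3.07-fold rise. It was 1.45, 1.35 and 2.05 at 2, 6 and 20 h. The difference was 1.70 without the 2 h arrays (adjusted p = 0.0432) and 1.40 without the 20 h arrays (adjusted p = 3.52e-08). The last p came with a smaller difference and a larger SE, 0.164 against 0.148 with all arrays. In that fit the variance prior, shared over probe sets, had 62.77 degrees of freedom on type B, against 7.28 with all arrays. The smaller p is therefore no sign of a larger or steadier difference. The call was lost without the filter on dim probe sets (adjusted p = 0.521) and without the intensity trend in the variance (adjusted p = 0.115).

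Rab15 encodes a GTPase of endosomal recycling, known mainly from neurons. Its probe set on type A read 371.8, 348.7 and 419.2 at 600 µg/l, against 56.4, 53.9 and 54.7 at 300 µg/l and 181.8, 264.5 and 311.4 in sham lungs. The 3 arrays of 300 µg/l were low and nearly equal, below sham as well as below 600 µg/l. The log2 difference was 2.03 ± 0.13 (SE, limma, adjusted p = 0.00877), and the fold of 4.09 understates the ratio of the signals because 50 was added before taking logs. The 300 µg/l signals lay under the filter of 183.4, so the probe set entered the test through its 600 µg/l arrays alone. A brighter Rab15 probe set, on type B, read 1205.3, 1346.6 and 1286.0 at 600 µg/l, against 1041.6, 1068.6 and 1129.9 at 300 µg/l and 1148.9, 1364.8 and 1196.0 in sham lungs. Its difference was 0.23 ± 0.11 (SE, limma, adjusted p = 0.977), so the probe sets of the gene disagreed in size. The rule for named genes takes the brightest probe set, and the type A probe set is named here after its value was seen. Without the filter it no longer passed (adjusted p = 0.166).

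**Figure D2:**
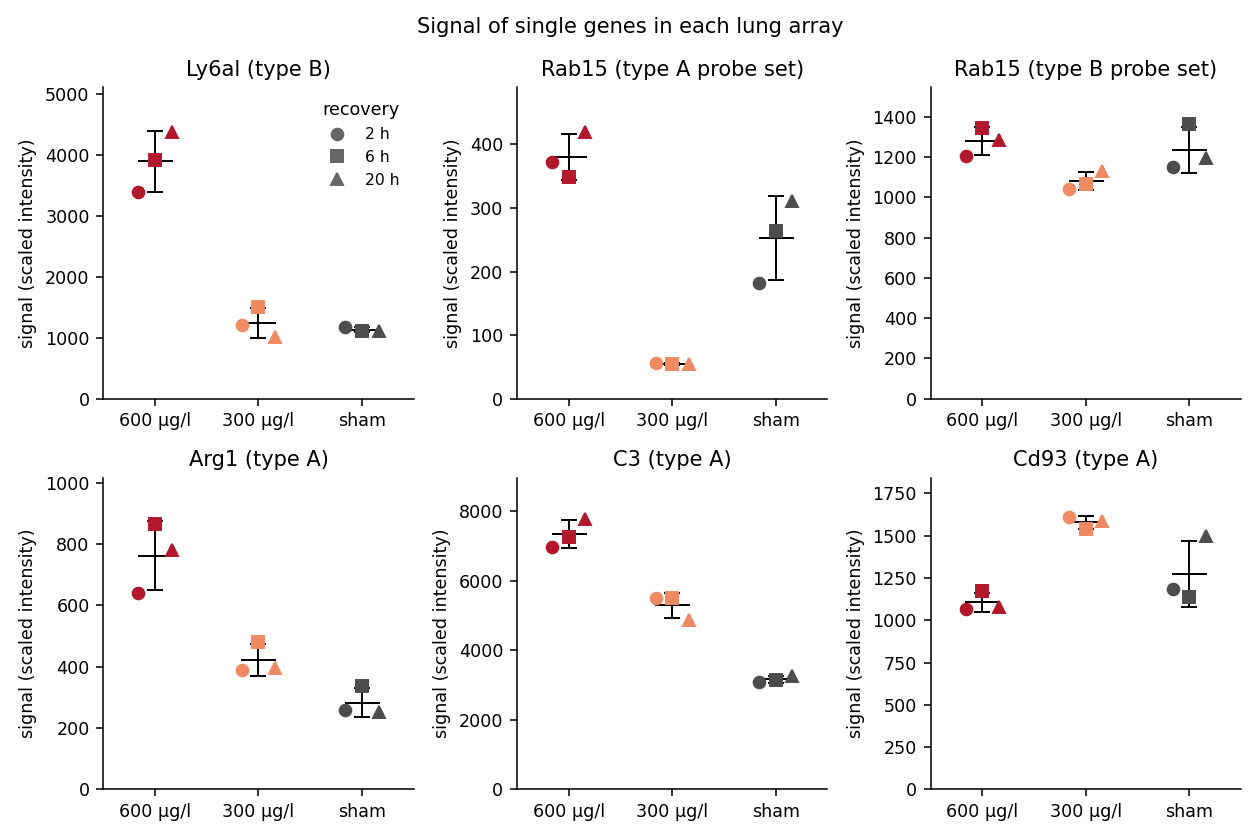
Signal (linear, scaled intensity) of 6 probe sets in each array at 600 µg/l, 300 µg/l and sham, with points for 2, 6 and 20 h and bars for mean ± SD (n = 3). Ly6al, Arg1 and C3 are highest at 600 µg/l, Cd93 is lower at 600 than at 300 µg/l, and the Rab15 probe sets of types A and B differ in pattern.

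The list of mucosal defence and acute inflammation had the highest median among lists with over 3 tested genes in the plot of list members, and it includes Ly6al. Its members, Ly6al, Plet1 and Slc26a4 among them, were chosen with earlier results of these data known. Its counts and median are therefore a description and no independent support for a difference. It has 17 genes, 15 with a probe set, of which 11 were tested, each at or above the filter on all 6 arrays of its type. Of these 11, 1 rose (Ly6al), 8 were higher at an unadjusted p under 0.05 (2.87% of all genes) and 0 lower, 7 were higher at all 3 times (12.7% of all genes) and 6 did not overlap (4.77% of all genes). Their median log2 difference was 0.40, beside 6.34e-05 over all genes. The median was 0.23 at 2 h, 0.40 at 6 h and 0.67 at 20 h. Without the 20 h arrays it was 0.30 with 6 of 11 at an unadjusted p under 0.05, beside 313 genes higher in all. Without the 2 h arrays it was 0.60 with 9 of 11, beside 220 genes higher in all.

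Arginase 1 (Arg1), which splits arginine and marks alternatively activated macrophages in rodents, had signals of 641.2, 865.1 and 781.1 at 600 µg/l, against 388.2, 482.3 and 395.3 at 300 µg/l and 257.9, 337.4 and 251.5 in sham lungs. The concentrations did not overlap. Its difference was 0.78 ± 0.09 (SE) and missed the threshold (limma, adjusted p = 0.109), but passed when the sham arrays were kept in the fit (adjusted p = 0.0363). Over its alternatives the adjusted p ran between 0.0363 and 0.712.

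Complement component C3, the central protein of the complement cascade, read 6966.8, 7259.0 and 7759.1 at 600 µg/l, against 5494.9, 5489.3 and 4870.5 at 300 µg/l and 3084.0, 3131.3 and 3268.3 in sham lungs. All 600 µg/l arrays were above all 300 µg/l arrays, which were above sham. The difference was 0.47 ± 0.08 (SE, limma, adjusted p = 0.486). Acidic chitinase (Chia), which degrades chitin in the airway lumen, averaged 7795 ± 733 at 600 µg/l, 5594 ± 721 at 300 µg/l and 1645 ± 153 in sham lungs (SD, n = 3 each). Its difference of 0.48 ± 0.09 (SE) had an adjusted p of 0.60 in limma. Lipocalin 2 (Lcn2), which starves bacteria of iron by binding siderophores, averaged 11238 ± 1160 at 600 µg/l, 7916 ± 1550 at 300 µg/l and 2906 ± 263 in sham lungs (SD, n = 3 each). Its difference of 0.52 ± 0.13 (SE, limma, adjusted p = 0.803) was 0.14 at 2 h and 0.95 at 20 h, and 0.30 without the 20 h arrays. Neither gene overlapped between the concentrations.

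The promoters of C3, Chia and Lcn2 are shown as examples. These genes are among 6 list members, and 474 of all 9939 genes, whose 600 µg/l arrays all lay above their 300 µg/l arrays. Sequences are from RefSeq (GRCr8), 250 bases before to 50 after each annotated start, 5′ to 3′ on the gene's strand. C3 is at chr9:2201290-2201589 (minus strand), Chia at chr2:196302437-196302736 (plus strand) and Lcn2 at chr3:36081731-36082030 (minus strand). Capitals mark matches, on either strand, to TTGCNNAA, a core that C/EBP factors bind, and to a loose form of the NF-κB site, GGG and CC with any 5 bases between them.
C3: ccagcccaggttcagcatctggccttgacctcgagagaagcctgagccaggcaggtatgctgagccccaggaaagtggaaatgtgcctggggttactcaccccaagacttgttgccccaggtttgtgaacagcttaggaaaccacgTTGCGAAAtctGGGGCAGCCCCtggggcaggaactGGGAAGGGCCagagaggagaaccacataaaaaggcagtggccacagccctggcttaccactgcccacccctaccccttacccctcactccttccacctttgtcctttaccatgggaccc
Chia: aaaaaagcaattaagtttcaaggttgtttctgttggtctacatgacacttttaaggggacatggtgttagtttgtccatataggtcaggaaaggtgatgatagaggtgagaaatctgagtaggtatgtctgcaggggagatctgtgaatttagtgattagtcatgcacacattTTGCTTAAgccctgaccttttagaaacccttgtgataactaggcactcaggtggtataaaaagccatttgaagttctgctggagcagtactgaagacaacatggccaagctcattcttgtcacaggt
Lcn2: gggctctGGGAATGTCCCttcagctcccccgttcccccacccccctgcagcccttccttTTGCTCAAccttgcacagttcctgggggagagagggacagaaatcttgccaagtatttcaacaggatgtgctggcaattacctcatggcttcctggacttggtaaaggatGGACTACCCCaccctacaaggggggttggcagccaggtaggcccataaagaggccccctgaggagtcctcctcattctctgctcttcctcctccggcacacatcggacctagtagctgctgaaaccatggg

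TTGCNNAA stands once in each of the 3 promoters, and 10.6% of the 33469 promoters of the same length hold it on either strand. The NF-κB form has 3 matches in C3, a pair of them overlapping, 3 in Lcn2, a pair of them overlapping, and none in Chia, and 47.3% of all promoters hold it. The AP-1 core TGANTCA, held by 7.33% of all promoters, is in none of the 3. A match describes the letters only and does not show that a factor binds there.

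Plet1, a surface protein of epithelial progenitor cells, has 3 probe sets, with differences of 0.62, 0.40 and 0.27 (limma, adjusted p = 0.486, 0.94 and 0.89). The brightest, on type B, gave 0.60 without the 2 h arrays and 0.13 without the 20 h arrays. On type A its signals were 2647.3, 2636.9 and 3329.2 at 600 µg/l, against 2076.9, 1685.7 and 1765.7 at 300 µg/l and 1080.8, 739.7 and 1033.7 in sham lungs. At 2 h the brightest probe set read 4359.8 at 600 µg/l, 4420.8 at 300 µg/l and 4351.0 in sham. The other type B probe set read 2517.0, 2136.3 and 2201.9 there, so on it sham was not lower than 300 µg/l. The type B arrays of sham and 300 µg/l at 2 h are those that shared their deviations. At 6 and 20 h that probe set read 1067.4 and 967.8 in sham, against 1943.7 and 2250.2 at 300 µg/l. The polymeric immunoglobulin receptor Pigr, which carries IgA across the epithelium, differed by 0.17 ± 0.07 (SE) and the acute-phase protein Saa3 by 0.33 ± 0.13 (SE). The anion exchanger Slc26a4 read 205.6, 309.7 and 513.5 at 600 µg/l, against 331.7, 258.1 and 185.5 at 300 µg/l and 82.0, 94.2 and 72.3 in sham lungs, so that its order at 2 h was opposite to that at 20 h.

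Macrophage and lysosome genes had a median above 0. Of 32 listed genes 27 had a probe set and 25 were tested, 24 of them at or above the filter on all 6 arrays. No member passed adjustment. At an unadjusted p under 0.05, 12 of 25 were higher (2.87% of all genes) and 0 lower, 15 were higher at all 3 times (12.7% of all genes), and 11 did not overlap (4.77% of all genes). The median log2 difference was 0.22, and it was 0.11, 0.13 and 0.33 at 2, 6 and 20 h. Without the 20 h arrays the median was 0.12 and 5 of 25 had an unadjusted p under 0.05, beside 313 genes higher in all. Without the 2 h arrays it was 0.25 with 9 of 25, beside 220 genes higher in all.

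The lysosomal glycoprotein Cd68, a standard macrophage marker, had signals of 2467.7, 2440.3 and 2672.4 at 600 µg/l, against 2171.1, 2103.6 and 1770.3 at 300 µg/l and 1146.8, 1026.2 and 1105.5 in sham lungs. The 3 groups did not overlap, in the order of the smoke concentration. Its difference was 0.32 ± 0.10 (SE, limma, adjusted p = 0.86), and 0.195 without the 20 h arrays (adjusted p = 0.896). Cathepsin D (Ctsd), a lysosomal protease, averaged 10456 ± 642 at 600 µg/l, 8837 ± 220 at 300 µg/l and 5513 ± 597 in sham lungs (SD, n = 3 each), a difference of 0.24 ± 0.06 (SE) between the concentrations. Naaa, a lysosomal amidase, differed by 0.29 ± 0.07 and the lipid scavenger receptor Cd36 by 0.30 ± 0.08 (SE). Gpnmb, a glycoprotein of lipid-laden macrophages, read 6366.5, 7410.9 and 8655.6 at 600 µg/l, against 6342.1, 6061.1 and 5340.3 at 300 µg/l and 2857.0, 2955.5 and 3140.2 in sham lungs. At 2 h the concentrations were nearly equal for Gpnmb, and they were farthest apart at 20 h. Its difference was 0.33 ± 0.12 (SE) with all arrays and 0.147 without the 20 h arrays.

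Macrophage elastase, Mmp12, which degrades elastin, had 393.3, 796.6 and 607.3 at 600 µg/l, against 401.0, 261.2 and 155.7 at 300 µg/l and 191.2, 157.9 and 162.4 in sham lungs. At 2 h both concentrations stood at about the same level above sham. At 20 h, where the exposure field of the smoke arrays reads sham, the 300 µg/l array was at the sham level while the 600 µg/l array was not. The mean difference was 1.03 ± 0.29 (SE, limma, adjusted p = 0.822), with −0.02, 1.44 and 1.68 at 2, 6 and 20 h. Without the 2 h arrays it was 1.56 (adjusted p = 0.0432), and without the 20 h arrays it was 0.709. The bone and macrophage protease cathepsin K (Ctsk) had a like course, with −0.02, 0.75 and 0.83, and the lipid receptor Trem2 had 0.17, 1.36 and 0.73.

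**Figure D3:**
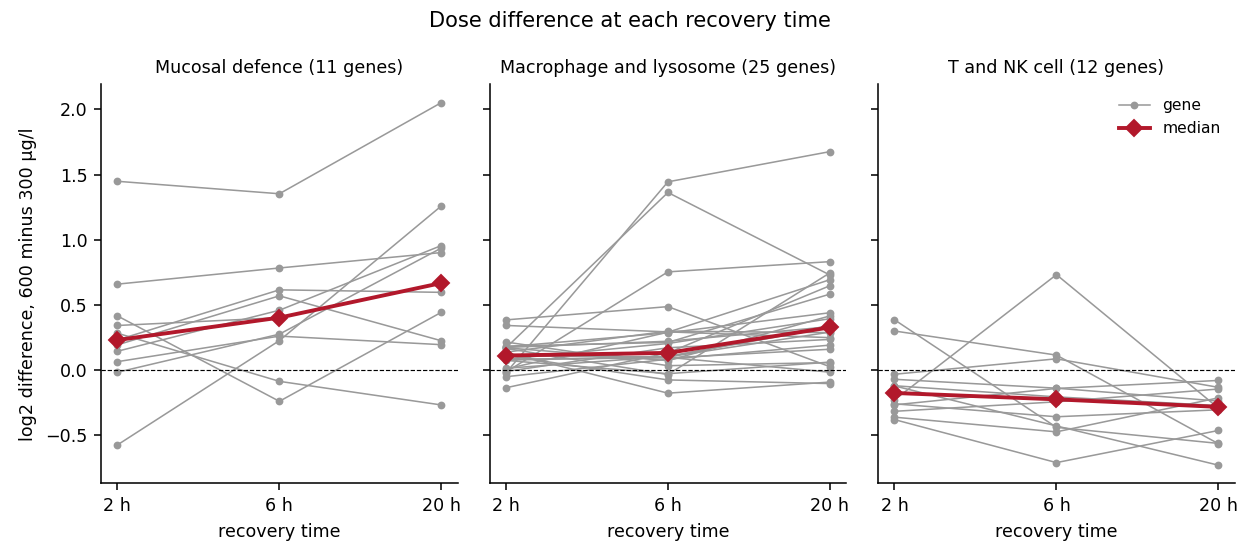
Log2 difference of 600 minus 300 µg/l at 2, 6 and 20 h for tested genes of the mucosal defence list (11), the macrophage and lysosome list (25) and the T and NK cell list (12), with a grey line per gene and the list median in red. The medians of the first 2 lists are 0.67 and 0.33 at 20 h and 0.23 and 0.11 at 2 h, and the T and NK cell median lies below 0 at each time.

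Neutrophil genes could be followed in part. Of 12 listed genes 8 had a probe set and 3 were tested. Mmp8, Mmp9, Cxcr2, Camp and Itgam, markers of the mature cell, stayed under the filter. S100a9, a calcium-binding protein that fills the neutrophil cytosol, read 2976.4, 6636.4 and 5161.2 at 600 µg/l, against 2300.1, 2233.6 and 2752.3 at 300 µg/l and 967.8, 694.7 and 1033.4 in sham lungs. The groups did not overlap, and the 600 µg/l arrays at 6 and 20 h stood highest. The difference was 0.94 ± 0.19 (SE, limma, adjusted p = 0.777), and 0.63 without the 6 h arrays. The median of the 3 genes was 0.54, and 0.094 without the 6 h arrays. Its partner S100a8 differed by 0.54 ± 0.24 (SE), nearly all of it at 6 h (1.42), and the receptor Csf3r by −0.01 ± 0.17 (SE).

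Chemokine and cytokine genes had a median difference of 0.13 over 18 tested of 26 listed. At an unadjusted p under 0.05, 5 were higher (Ccl7, Cxcl1, Ccl6, Ccl2 and Cxcl2) and 1 lower (Ccl5), and none passed adjustment. Of all genes, 2.87% were higher and 2.3% lower. Without the 20 h arrays the list counts were 2 and 2, beside 313 genes higher and 261 lower of 9939. Cxcl1, a neutrophil attractant, had 1401.1, 1348.4 and 1631.6 at 600 µg/l, against 1342.1, 718.1 and 702.4 at 300 µg/l and 520.9, 398.3 and 781.4 in sham lungs. As for Mmp12, the 2 h arrays of both concentrations were alike, and the gap was 0.86 at 6 h and 1.16 at 20 h. Its mean difference was 0.69 ± 0.18 (SE), and 0.462 without the 20 h arrays. The monocyte attractant Ccl7 differed by 1.01 ± 0.28 (SE), its 300 µg/l signals of 247.6, 70.5 and 107.7 reaching below the sham level of 194.8 to 246.5. Ccl5, which attracts T cells, had 1860.2, 2307.0 and 2237.2 at 600 µg/l, against 2306.2, 2677.5 and 3182.2 at 300 µg/l and 3206.2, 3091.4 and 3135.2 in sham lungs. It was lower at each time, by 0.34 on average, while the arrays of the 2 concentrations overlapped (limma, adjusted p = 0.803).

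The T and NK cell list had a median below 0. Of 15 listed genes 14 had a probe set and 12 were tested. None passed adjustment, 5 were lower (2.3% of all genes) and 0 higher at an unadjusted p under 0.05, 8 were lower at all 3 times (12.7% of all genes) and 5 did not overlap (4.14% of all genes). One of them, Cd3d, reached the filter on its 300 µg/l arrays alone, and without it 4 of 11 were lower at an unadjusted p under 0.05, 7 at all 3 times and 4 without overlap, with a median of −0.203. The median difference was −0.21, with −0.18, −0.23 and −0.29 at 2, 6 and 20 h. Without the 20 h arrays it was −0.19 with 4 of 12 lower at an unadjusted p under 0.05, beside 261 genes lower in all. Over the alternatives the median of the 12 ran between −0.31 and −0.16.

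The kinase Lck, which starts signalling from the T cell receptor, had 717.1, 819.9 and 820.9 at 600 µg/l, against 870.0, 1067.9 and 1028.4 at 300 µg/l. The difference was −0.31 ± 0.08 (SE, limma, adjusted p = 0.803). Of the chains of the receptor complex, Cd3g had 309.8, 324.7 and 406.3 at 600 µg/l, against 413.4, 471.8 and 480.2 at 300 µg/l, and a difference of −0.35 ± 0.10 (SE). Cd3e differed by −0.43 ± 0.16 (SE). Cd3d differed by −0.52 ± 0.14 (SE) and entered the test through its 300 µg/l arrays alone. Il2rb, a subunit of the interleukin 2 receptor, differed by −0.24 ± 0.09 (SE). The sham means of Lck, Cd3g and Il2rb, at 1046 ± 191, 470 ± 33 and 595 ± 97 (SD, n = 3 each), were near the 300 µg/l means of 989 ± 105, 455 ± 36 and 581 ± 28.

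Mast cell genes were few. Of 8 listed genes 4 were tested, while Cma1, Tpsab1, Fcer1a and Ms4a2 stayed under the filter. Carboxypeptidase A3 (Cpa3), a granule protease, had 392.9, 282.8 and 437.9 at 600 µg/l, against 510.5, 446.5 and 492.6 at 300 µg/l, and the tryptase Tpsb2 had 428.3, 300.0 and 374.6 against 481.8, 434.4 and 468.4. Sham lungs read 490.2, 542.8 and 374.2 for Cpa3 and 463.7, 414.5 and 392.1 for Tpsb2, overlapping 600 µg/l. Neither gene overlapped between the concentrations (4.14% of all genes were lower without overlap). Their differences were −0.36 ± 0.11 and −0.30 ± 0.10 (SE, limma, adjusted p = 0.86 each). At an unadjusted p under 0.05, 2 of the 4 were lower (2.3% of all genes), and 0 of the 4 without the 6 h arrays. Kit and Hdc differed by −0.08 ± 0.09 and 0.02 ± 0.12 (SE). Of 5 B and plasma cell genes tested, 0 had an unadjusted p under 0.05, and the median was 0.06.

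MHC class II genes, which present antigen on macrophages, dendritic cells and B cells, had a median of 0.12 over 8 tested genes. RT1-Db1, a β chain, read 2915.0, 3082.2 and 3089.9 at 600 µg/l, against 2368.3, 2640.6 and 2746.6 at 300 µg/l and 2810.8, 2297.2 and 2601.7 in sham lungs. It was higher without overlap, by 0.23 ± 0.07 (SE, limma, adjusted p = 0.86), as 1 of 2 such genes among the 8 (4.77% of all genes). A dimmer RT1-Db1 probe set on type A read 326.2, 343.7 and 363.2 at 600 µg/l, against 399.0, 62.9 and 509.6 at 300 µg/l. On that probe set the concentrations overlapped, and 600 µg/l was lower at 2 and 20 h. A probe set of RT1-Ba on type B varied manyfold between arrays of the same group, with 8901.8, 963.8 and 1162.4 at 600 µg/l, 6066.5, 4894.9 and 342.5 at 300 µg/l and 5992.8, 329.9 and 579.6 in sham lungs. High and low arrays occurred in each group.

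**Figure D4:**
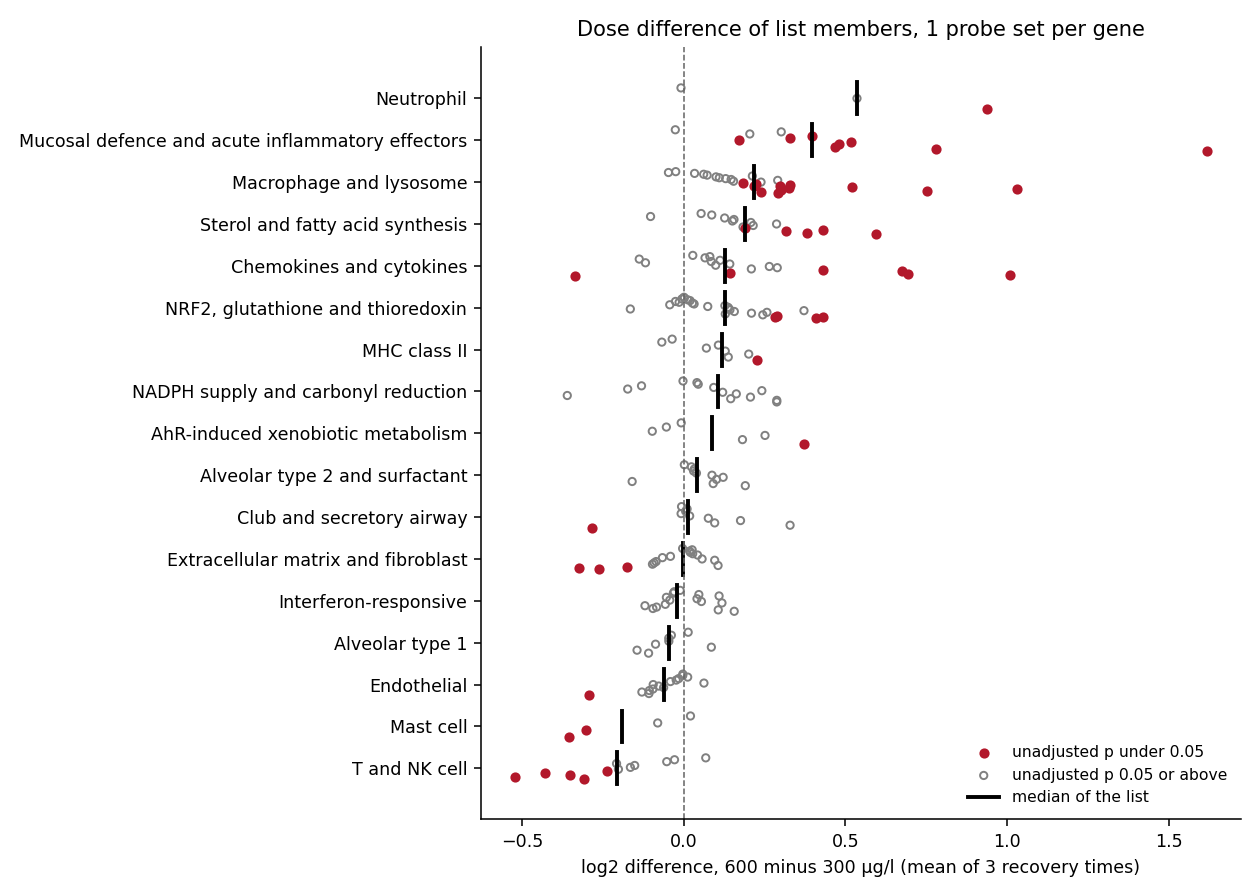
Log2 difference of 600 minus 300 µg/l (x axis) for each tested gene of 17 lists, ordered by list median, with filled red points for an unadjusted p under 0.05, open grey points for the others and a black bar at the median. The medians run between 0.54 for 3 neutrophil genes and −0.21 for 12 T and NK cell genes, and the alveolar type 2, club and endothelial medians are 0.04, 0.01 and −0.06.

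Xenobiotic-metabolism genes driven by AhR had small differences between the concentrations. Cyp1a1, which oxidises polycyclic hydrocarbons, had 9462.7, 2122.4 and 207.0 at 600 µg/l, against 8795.0, 2789.3 and 209.3 at 300 µg/l and 154.4, 110.8 and 101.7 in sham lungs. Both concentrations were far above sham at 2 h and nearest to it at 20 h. The difference between them was −0.10 ± 0.10 (SE, limma, adjusted p = 0.992), with 0.10, −0.39 and −0.01 at 2, 6 and 20 h. The related enzyme Cyp1b1 had 2724.9, 756.7 and 546.6 at 600 µg/l, against 2008.2, 570.7 and 570.4 at 300 µg/l, a difference of 0.25 ± 0.11 (SE). The quinone reductase Nqo1 had 5959.3, 3557.3 and 1615.9 at 600 µg/l, against 4750.5, 3478.5 and 1412.8 at 300 µg/l and 1233.5, 1394.3 and 1389.2 in sham lungs, a difference of 0.18 ± 0.08 (SE). Tiparp, an AhR repressor, differed by 0.37 ± 0.13 on its type B probe set and by −0.10 ± 0.08 on its type A probe set (SE). Over the 6 tested genes the median was 0.09, and 0.38 at 2 h.

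The NRF2, glutathione and thioredoxin list had a median of 0.13 over 26 tested genes. None passed, 4 were higher (2.87% of all genes) and 0 lower at an unadjusted p under 0.05, and 8 were higher at all 3 times (12.7% of all genes). The mitochondrial superoxide dismutase Sod2 had 2047.7, 2400.1 and 2043.1 at 600 µg/l, against 1686.5, 1615.3 and 1541.7 at 300 µg/l. It did not overlap, and its difference was 0.41 ± 0.08 (SE, limma, adjusted p = 0.778). Heme oxygenase 1 (Hmox1) had 1275.5, 589.3 and 647.7 at 600 µg/l, against 762.3, 635.4 and 384.9 at 300 µg/l and 455.2, 384.8 and 316.3 in sham lungs. Its differences of 0.71, −0.10 and 0.68 at 2, 6 and 20 h left the groups overlapping. Gclc and Gclm, the subunits of the enzyme that starts glutathione synthesis, differed by 0.28 ± 0.09 and 0.24 ± 0.11 (SE), Gclm mainly at 2 h (0.47). Without the 2 h arrays the list median was 0.06 with 1 of 26 genes higher at an unadjusted p under 0.05, beside 220 of all 9939 genes. Without the 20 h arrays it was 0.11 with 7 higher and 1 lower, beside 313 and 261 of all genes.

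Of 14 tested genes of NADPH supply and carbonyl reduction, 0 had an unadjusted p under 0.05 and 4 were higher at all 3 times (12.7% of all genes), with a median of 0.11. In the list of metallothionein, heme and iron handling the median over 9 genes was 0.004. Metallothionein Mt2A, a zinc-binding protein, had 2242.8, 1218.7 and 1254.3 at 600 µg/l, against 1416.2, 964.3 and 715.7 at 300 µg/l and 579.2, 435.7 and 138.9 in sham lungs. It was higher at each time, by 0.58 ± 0.10 (SE, limma, adjusted p = 0.486), and passed without the 6 h arrays (adjusted p = 0.0469). Haptoglobin (Hp), which binds free haemoglobin, differed by 0.41 ± 0.11 (SE).

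**Figure D5:**
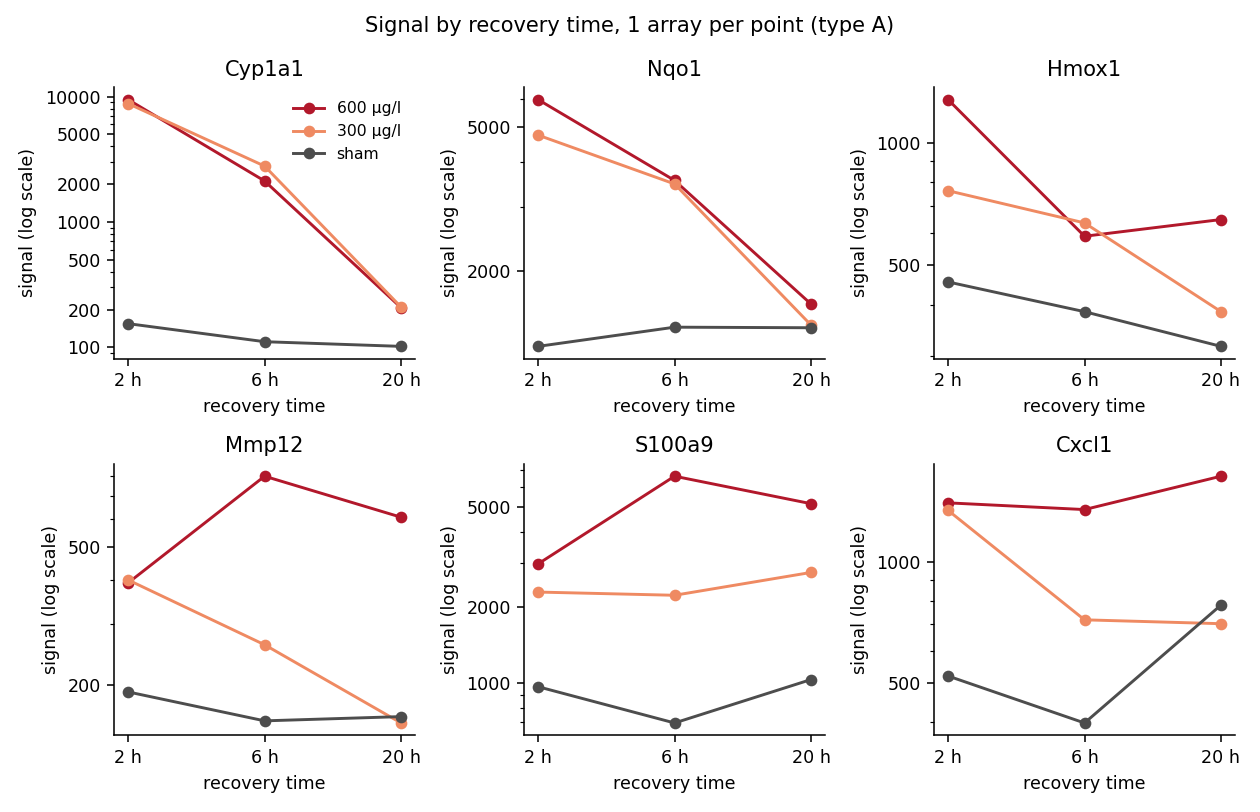
Signal on a log axis at 2, 6 and 20 h for 6 genes on type A, with 1 array per point, at 600 µg/l, 300 µg/l and sham. The Cyp1a1 curves of both concentrations nearly coincide, while Mmp12 and Cxcl1 start alike at 2 h and stand apart at 6 and 20 h.

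Of 19 genes of sterol and fatty acid synthesis, 15 were tested. Of these, 0 passed adjustment, 5 were higher (2.87% of all genes) and 0 lower at an unadjusted p under 0.05, 9 were higher at all 3 times (12.7% of all genes) and 1 did not overlap (4.77% of all genes), with a median of 0.19. Without the 6 h arrays the median was 0.089 with 4 of 15 at an unadjusted p under 0.05, beside 435 genes higher in all. Squalene epoxidase (Sqle), a rate-limiting enzyme of cholesterol synthesis, had 276.1, 590.4 and 376.6 at 600 µg/l, against 174.8, 329.2 and 253.0 at 300 µg/l and 281.9, 215.2 and 282.9 in sham lungs. Both concentrations peaked at 6 h. The matched differences were 0.54, 0.76 and 0.49, with a mean of 0.60 ± 0.10 (SE, limma, adjusted p = 0.486). Fdps and Lss, enzymes of the same pathway, differed by 0.38 ± 0.08 and 0.43 ± 0.11, and fatty acid synthase (Fasn) by 0.32 ± 0.07 (SE). At 300 µg/l the means of Sqle, Fdps and Fasn, at 252 ± 77, 970 ± 206 and 2857 ± 358, were near those of sham lungs, at 260 ± 39, 925 ± 30 and 2779 ± 201 (SD, n = 3 each).

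No gene passed in the lists of alveolar type 2 (11 tested, median 0.04), alveolar type 1 (8, −0.05), club and secretory (10, 0.01), ciliated (6, 0.04), endothelial (15, −0.06) or smooth muscle cells (9, −0.002). The club and secretory median was 0.303 without the 20 h arrays, with 4 of 10 genes higher and 1 lower at an unadjusted p under 0.05, against 0 higher and 1 lower with all arrays. Over all 9939 genes, 313 were higher and 261 lower without the 20 h arrays, and 2.87% and 2.3% with all arrays. Cyp4b1, a fatty acid and xenobiotic oxidase of club cells, had 3604.7, 3049.4 and 3623.1 at 600 µg/l, against 4133.8, 4060.7 and 4334.5 at 300 µg/l and 5659.8, 4854.5 and 5739.8 in sham lungs. The 3 groups did not overlap, and its difference was −0.29 ± 0.07 (SE, limma, adjusted p = 0.803). The arterial gap junction protein Gja4 differed by −0.29 ± 0.09 (SE). Of 17 extracellular matrix genes 3 were lower at an unadjusted p under 0.05 (2.3% of all genes), namely Spon2 (−0.26 ± 0.09), Fbn1 (−0.32 ± 0.11, and 0.04 on another probe set) and Postn (−0.18 ± 0.07, SE), and the list median was −0.004. Among 8 metalloproteinases and inhibitors, only Mmp12 had an unadjusted p under 0.05 (2.87% of all genes higher and 2.3% lower). The medians of the cell cycle (10 genes), p53 (10) and interferon lists (16) were 0.06, −0.04 and −0.02.

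Outside the lists, Efna2 and Grm8 came nearest to the threshold on the higher side. Ephrin A2 (Efna2), a ligand of Eph receptors, had 719.0, 459.3 and 580.8 at 600 µg/l, against 191.7, 152.1 and 251.1 at 300 µg/l and 187.5, 337.9 and 315.6 in sham lungs. It was higher without overlap, by 1.36 ± 0.18 (SE, limma, adjusted p = 0.109), and passed without the 20 h arrays (1.502, adjusted p = 0.0022) but not without the 2 h arrays (1.20, adjusted p = 0.493). The fit without the 20 h arrays had the larger type B variance prior, and the SE of Efna2 there was 0.264. The glutamate receptor Grm8 had 263.7, 277.9 and 424.3 at 600 µg/l, against 52.1, 145.1 and 149.4 at 300 µg/l and 319.5, 172.7 and 327.3 in sham lungs, and its difference was 1.21 ± 0.17 (SE, limma, adjusted p = 0.355). Its 300 µg/l signals all lay under the filter of 183.4, so Grm8 was tested through its 600 µg/l arrays alone. The sham signals of Grm8 overlapped those of 600 µg/l, while those of the type A Rab15 probe set lay between the 2 concentrations. Next to them stood the potassium channel Kcnj15 (0.47 ± 0.08, and 0.18 on a dimmer probe set), Nckap5l (0.82 ± 0.16) and Nfkbid, a nuclear inhibitor of NF-κB (0.80 ± 0.15, SE). Without the 2 h arrays the type B genes Nckap5l and Nfkbid gave 1.07 and 0.82, and neither passed.

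On the lower side, the closest to the threshold were a transporter and a receptor of vessels. The sodium, calcium and potassium exchanger Slc24a3 had 489.7, 423.4 and 514.5 at 600 µg/l, against 744.4, 599.4 and 826.7 at 300 µg/l and 541.1, 517.2 and 832.3 in sham lungs. Its difference was −0.55 ± 0.09 (SE, limma, adjusted p = 0.486), while a dimmer probe set gave −0.11. Cd93, a lectin-like receptor of endothelial and myeloid cells, had 1067.5, 1172.0 and 1081.1 at 600 µg/l, against 1611.6, 1537.7 and 1587.6 at 300 µg/l and 1185.3, 1136.4 and 1498.0 in sham lungs. Its difference of −0.49 ± 0.08 (SE, limma, adjusted p = 0.486) set the 300 µg/l arrays above both other groups. Zeb2, a transcriptional repressor, gave −0.76, −0.26 and 0.14 on 3 probe sets. The adhesion receptor Adgra2 gave −0.60 ± 0.13, Unc5cl −0.56 ± 0.12, the small GTPase Rap2a −0.45 ± 0.11, Dtna −0.45 ± 0.11 (−0.03 on type A) and Tcim −0.44 ± 0.09 (SE). Lrrc8c, a subunit of volume-regulated anion channels, had 88.4, 322.6 and 107.8 at 600 µg/l, against 483.5, 400.5 and 371.4 at 300 µg/l, a difference of −1.21 ± 0.31 (SE, limma, adjusted p = 0.80). Without the 2 h arrays the type B genes Zeb2, Dtna and Lrrc8c gave −0.872, −0.528 and −0.845, and none passed.

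The recovery times were also compared one by one, with a single array per concentration and type and no test. At 2 h, 40 of 9939 genes were 2-fold or more higher (0.402%) and 22 lower (0.221%) at 600 µg/l. At 6 h, 40 were higher (0.402%) and 21 lower (0.211%), and at 20 h, 52 were higher (0.523%) and 32 lower (0.322%). Only Ly6al and Efna2 were 2-fold or more higher at all 3 times, and 0 genes were lower at all 3. The spread of these differences over probe sets, an SD of 0.22 to 0.23 (type A) or 0.34 to 0.35 (type B), was of the size of that between recovery times within a concentration, at 0.22 to 0.26 and 0.33 to 0.40.

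The largest single-time differences came mostly from type B. At 2 h the highest included Tgm3 (2.16), Gemin6 (2.11), Angel2 (2.00), Spef1 (1.97) and Bpifb1 (1.75), and the lowest Ccdc59 (−2.14), Lrrc8c (−1.95), Zic2 (−1.72), Tmem231 (−1.64) and LOC102555217 (−1.52). Bpifb1, a secreted airway protein, had 402.1, 516.2 and 97.7 at 600 µg/l, against 84.0, 45.9 and 335.5 at 300 µg/l, so its order turned round at 20 h. At 6 h the highest included Bpifb1 (2.56), Slc34a3 (1.67), Nadsyn1 (1.64), S100a9 (1.55) and Ccl7 (1.5), and the lowest Art4 (−2.41), RT1-Ba (−2.29), Ralgps2 (−2.04), Prxl2b (−1.74) and Sptb (−1.69). At 20 h the highest included Traf1 (2.94), Angel2 (2.06), Ly6al (2.05), H1f10 (2.00) and Mzf1 (1.87), and the lowest Fam111a (−1.84), Borcs6 (−1.71), Mrgprf (−1.66), Abitram (−1.53) and Upk2 (−1.49). Other tested probe sets gave −0.42 for Traf1 at 20 h and 0.89 for Ralgps2 at 6 h. For RT1-Ba at 6 h they gave 0.55 and −0.50 on type A and −3.31 on type B. Some values rest on a dim 300 µg/l array, with 23.5 and 22.0 for Angel2 at 2 and 20 h. Gemin6 read 21.7 at 2 h and Traf1 46.6 at 20 h there. Some of the lowest values rest on a dim 600 µg/l array, with 42.7 for Ccdc59 and 59.3 for Tmem231 at 2 h. On 600 µg/l arrays Art4, Ralgps2 and Sptb read 72.5, 65.8 and 68.1 at 6 h, and Upk2 read 69.3 at 20 h. Fam111a, at 599.7 at 20 h, was not dim.

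A difference between 600 and 300 µg/l that was itself different at 2 h from 6 and 20 h together was tested in limma with 1 residual degree of freedom. Of 18954 probe sets, 0 passed (0%), 619 had an unadjusted p under 0.05, and the smallest adjusted p was 0.432. The 5 named genes with the smallest p were Glrx, Mmp12, Mea1, Zic2 and Mybl2. For Mmp12 the 2 h difference minus that of the later times was −1.58 ± 0.23 (SE, limma, adjusted p = 0.77).

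On 1361 genes tested on both types, 702 had the same sign, and the mean differences of the types correlated at r = 0.085 across genes, which are not independent replicates. The median SE of a difference was 0.10 on type A and 0.15 on type B.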

How the data were processed

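RNA from rat lung was measured on Affymetrix arrays of types A and B. The authors deposited 1 linear signal intensity per probe set and array, computed by MAS5 (per the submitters' processing notes), and the values show a common trimmed mean of 500.1. Build and annotation of that step are not given in the sources used here. From these intensities log2(signal + 50) was taken, and log2 fold changes of 600 over 300 µg/l were fitted for each array type with limma 3.58.1 (R 4.3.3), with recovery time as a factor, an intensity trend and 2 residual degrees of freedom. A probe set entered the test if 3 or more of its 6 arrays reached a signal of 183.4 (type A) or 238.6 (type B), which is the 40th percentile, and p-values were adjusted (Benjamini-Hochberg, two-sided, threshold 0.05) over both types. The number of arrays limits the precision. The fit was tested on simulated data.

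The platform annotation gave 1 symbol to 12789 of the 15923 type A probe sets and several to 312, and did not list 2822. For type B it gave 1 symbol to 7570 of 15333, several to 100 and did not list 7663. A gene was read at its brightest probe set. All 3 promoters were found in the RefSeq table, which holds no entry for Ly6al or Arg1.

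Named genes were those past the threshold, filled to 10 per direction by unadjusted p among genes with 1 sign at all 3 times, up to 5 per direction with the largest difference at each time, up to 4 of each list by p, the 5 smallest p of the time test, and a fixed set. Other genes with values, such as Csf3r, Ager, Kit, Hdc and further list members, were added to describe their list after their values were seen. The members and lists were chosen with earlier results of these data known. Alternatives were the sham arrays kept in the fit, no time term, quantile or median scaling, pseudocounts of 12.5 and 200, the filter removed or set to the 60th percentile, a variance prior without trend, adjustment per array type, and each recovery time left out.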

Additional observations from a re-analysis of the deposited data

How the results depend on the processing

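The count of 2 probe sets past the adjusted threshold became 4 with the sham arrays in the fit, 0 without the filter, 1 with the 60th percentile filter and 1 without the intensity trend, where the cause was not tested; without the filter more probe sets entered the adjustment, and under the 60th percentile the Rab15 probe set was not tested. Leaving out 1 recovery time at a time gave 3 to 25, with 3 without 2 h, 18 without 6 h and 25 without 20 h, and both probe sets remained among them. The fit without 20 h had a type B variance prior of 62.77 degrees of freedom, against 7.28 with all arrays, and its adjusted p on type B are not like for like. Median scaling, a pseudocount of 200 and adjustment within each type gave 3 each, and the other alternatives 2. Over 51 named probe sets, 636 values kept direction and side of the threshold, 3 lost it, 6 gained it and 7 reversed. Those that lost it were Ly6al (adjusted p = 0.521 without the filter, 0.115 without the trend) and Rab15 (0.166 without the filter). Those that gained it were Arg1 with the sham arrays (0.0363), Efna2 without 20 h (0.0022), Grm8 (0.0137), Mt2A (0.0469) and Adgra2 (0.0469) without 6 h, and Mmp12 without 2 h (0.0432), all in limma. Reversed values belonged to 4 genes that did not pass, and the cause was not tested. With 1 time left out, Cyp1a1 ran between −0.20 and 0.05 (0.046 without 6 h), Aldh3a1 between −0.33 and 0.16 (0.009 without 6 h, 0.157 without 20 h), Slc26a4 between −0.18 and 0.74 (−0.178 without 20 h) and Scgb1a1 between −0.058 and 0.071 (0.071 without 6 h). Aldh3a1 was 0.035 with a pseudocount of 200 and Scgb1a1 0.019 with median scaling. The difference between times gave 0 calls under each alternative run, and it has no value with a time left out. Probe sets under the filter, such as most neutrophil markers, carry no comparison here. Leaving Cd3d out of the T and NK cell list was chosen after seeing the data.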

Other observations

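Further lists describe pathways and tissues not treated above, and no member passed adjustment in limma. Among glucocorticoid-responsive genes (8 tested, median −0.01), Fkbp5, a co-chaperone of the receptor, had 914.2, 425.3 and 668.6 at 600 µg/l, against 594.3, 324.1 and 473.9 at 300 µg/l, a difference of 0.46 ± 0.13 (SE, adjusted p = 0.819). Pdk4, a kinase that restrains glucose oxidation, had 345.2, 246.8 and 495.9 at 600 µg/l, against 394.4, 325.0 and 1147.4 at 300 µg/l, and most of its difference of −0.55 ± 0.20 (SE, adjusted p = 0.86) lay at 20 h. The clock gene Per2 differed by 0.22 ± 0.08 (SE), with a median of −0.02 over 16 clock genes. Alas2, which starts heme production in erythroid cells, had 1019.3, 904.7 and 762.4 at 600 µg/l, against 1283.9, 1089.4 and 1036.6 at 300 µg/l, a difference of −0.33 ± 0.08 (SE, adjusted p = 0.803). The medians of the heat shock (15 genes), immediate early (14) and proteasome lists (24) were 0.04, −0.01 and 0.01, and 0 members of these had an unadjusted p under 0.05. Of 9 cardiac and 7 skeletal muscle genes, 2 and 1 passed the filter.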
